A study of Mus musculus with 16 samples.

Results

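Norepinephrine and epinephrine reach immune cells through beta adrenergic receptors, and 9 mouse genes of that receptor pathway were followed here out of the 49585 genes measured. The set was chosen by gene name, with earlier results of these data known. It holds 1 receptor gene (Adrb1), 1 arrestin gene (Arrb2), 1 adenylate cyclase gene (Adcy7), 5 phosphodiesterase genes (Pde2a, Pde3b, Pde4a, Pde4b and Pde4d) and Crem, which encodes cAMP-responsive transcription factors. The RNA came from CD45+ cells, the cells of the blood lineage, in the bone marrow and the spleen of C57BL/6J mice, 12 weeks old and carrying Dbh-Cre, a recombinase driven by the gene for dopamine beta-hydroxylase, an enzyme of noradrenergic and adrenergic cells. A Cre-dependent viral vector placed on both sides of the ventrolateral medulla (VLM), a brainstem region with such neurons, gave the DbhVLM-hM3Dq mice the designer receptor hM3Dq with mCherry, and gave the DbhVLM-mCherry mice mCherry alone. All mice of both virus groups received clozapine N-oxide (CNO), the drug that activates hM3Dq, and cells were taken 4 hours later, so the control also carries Cre, a vector and the drug. There were 4 libraries in each of 4 groups, with hM3Dq replicates numbered 5 to 8 and mCherry replicates numbered 1 to 4 in both tissues. The series calls them biological replicates and does not say how many mice gave a library, so the p-values measure the spread between these libraries, and a batch that follows the replicate numbers cannot be told apart from the virus. The designer receptor is made in brainstem neurons, so none of these genes checks its delivery.

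As background, binding of a catecholamine to a beta adrenergic receptor activates the stimulatory G protein, which switches on adenylate cyclase, and the cAMP made activates protein kinase A and, through CREB and its relatives, transcription. Receptor kinases and arrestins then uncouple and internalize the receptor, and phosphodiesterases break cAMP down. In lymphocytes and myeloid cells, cAMP is known mainly as a brake on activation, and several phosphodiesterase genes are themselves induced by it.

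Each library held 11.34 to 16.96 M assigned fragments (M for megafragments), and levels are given as FPKM, fragments per kilobase of exon and per M assigned. Ptprc, which encodes CD45, was present in every library, at 27.8 to 44.8 FPKM in bone marrow hM3Dq and 33.5 to 37.2 in bone marrow mCherry, and at 66.2 to 81.5 in spleen hM3Dq and 86.9 to 93.5 in spleen mCherry. Haemoglobin transcripts, from red cell precursors, made up the smallest share of fragments in hM3Dq replicate 6 in both tissues, at 0.391% in bone marrow and 0.133% in spleen, and results that rest on this library are given with and without it. In bulk RNA, fewer cells of a type and less RNA per cell cannot be told apart.

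Reference promoter sequences from RefSeq (build GRCm38.p6) were used for 6 of the 9 genes, with 17 windows of 250 bases before an annotated start site. Shown here is sequence before starts of Pde2a, the gene whose change differed between tissues, and of Pde4b and Pde4d, which went up and down together across libraries; these are 2 of the 5 Pde2a windows, the 1 of the 4 Pde4b windows that holds both motifs, and the 1 Pde4d window. Capitals mark TGACG, the core of the cAMP response element, or AGAACA, one arm of the glucocorticoid response element, on either strand (CGTCA and TGTTCT on the other). All windows are on the plus strand and run 5′ to 3′. The Pde2a windows belong to different starts, at chr7:101421441-101421690 and chr7:101450270-101450519, the Pde4b window is chr4:102421305-102421554 and the Pde4d window is chr13:108653927-108654176.
Pde2a, upstream start: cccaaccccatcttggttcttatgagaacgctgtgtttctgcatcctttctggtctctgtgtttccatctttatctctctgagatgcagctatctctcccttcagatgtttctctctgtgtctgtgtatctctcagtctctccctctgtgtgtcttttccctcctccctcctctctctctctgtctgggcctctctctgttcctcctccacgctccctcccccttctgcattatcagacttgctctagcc
Pde2a, downstream start: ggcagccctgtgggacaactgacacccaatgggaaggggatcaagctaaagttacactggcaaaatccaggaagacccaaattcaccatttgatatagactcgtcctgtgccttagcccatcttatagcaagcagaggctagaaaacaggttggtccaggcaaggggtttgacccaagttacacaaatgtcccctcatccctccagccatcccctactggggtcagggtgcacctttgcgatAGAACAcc
Pde4b: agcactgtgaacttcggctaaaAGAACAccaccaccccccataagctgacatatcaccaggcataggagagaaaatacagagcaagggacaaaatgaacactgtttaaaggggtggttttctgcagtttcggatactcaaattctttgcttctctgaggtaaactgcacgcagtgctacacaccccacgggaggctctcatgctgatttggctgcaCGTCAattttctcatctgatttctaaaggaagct
Pde4d: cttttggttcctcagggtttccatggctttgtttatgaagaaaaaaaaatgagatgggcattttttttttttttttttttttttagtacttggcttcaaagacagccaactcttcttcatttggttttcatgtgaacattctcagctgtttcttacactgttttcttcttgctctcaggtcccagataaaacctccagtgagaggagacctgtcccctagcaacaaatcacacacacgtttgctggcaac

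TGACG was found in 4 of the 17 windows, against 17.8% of 32851 windows of all genes, and AGAACA in 3 of the 17, against 16.1%. The full cAMP response element TGACGTCA, which contains TGACG on both strands, was in none of the 17 windows and in 1.55% of all windows. The 17 windows hold none of Arrb2, Pde3b or Crem. Crem was left out and not searched without a match, so these counts do not describe its promoters. In the downstream Pde2a window AGAACA began 8 bases before the start, and in the Pde4b window shown TGACG and AGAACA began 34 and 228 bases before it. Another Pde4b window held AGAACA. The upstream Pde2a window and the Pde4d window held neither. Such a match is a description of letters and not evidence of a bound site.

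Of the 9 genes, Arrb2 was higher with hM3Dq in both tissues and Pde2a was higher with hM3Dq in spleen, and no member was called lower. Differences were tested with limma on log2(FPKM scaled for composition by TMM + 0.1), with Benjamini-Hochberg adjustment over all genes tested and a call at an adjusted p below 0.05. The bone marrow split of all called genes, 489 higher and 273 lower, was 640 and 158 without that scaling. In bone marrow 8 members passed the filter on low counts and 1 of them was called, as higher, against 4.74% of all genes tested (3.04% as higher). In spleen 9 passed and 2 were called, as higher, against 8.06% of all genes tested (3.48% as higher). The median log2 change over the members was 0.24 in bone marrow, where that of all genes was -0.01, and 0.47 in spleen, where that of all genes was -0.02. The members were picked with earlier results of these data known, so these counts and medians are a description. Over the genes tested of 92 others on a cAMP pathway list, described below, the medians were 0.02 in bone marrow and -0.02 in spleen. At an unadjusted p under 0.05 the members numbered 3 higher and 1 lower in bone marrow, and 4 higher and 0 lower in spleen. Such a p, in either direction, was common over all genes tested, with 3837 of 16084 in bone marrow and 4479 of 17063 in spleen. FPKM values of the virus groups did not overlap for 2 members in bone marrow, Arrb2 and Adcy7, both higher in hM3Dq, against 12.2% of genes that were higher without overlap. They did not overlap for 3 members in spleen, Adrb1, Arrb2 and Pde2a, again all higher, against 9.35%.

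**Figure D1:**
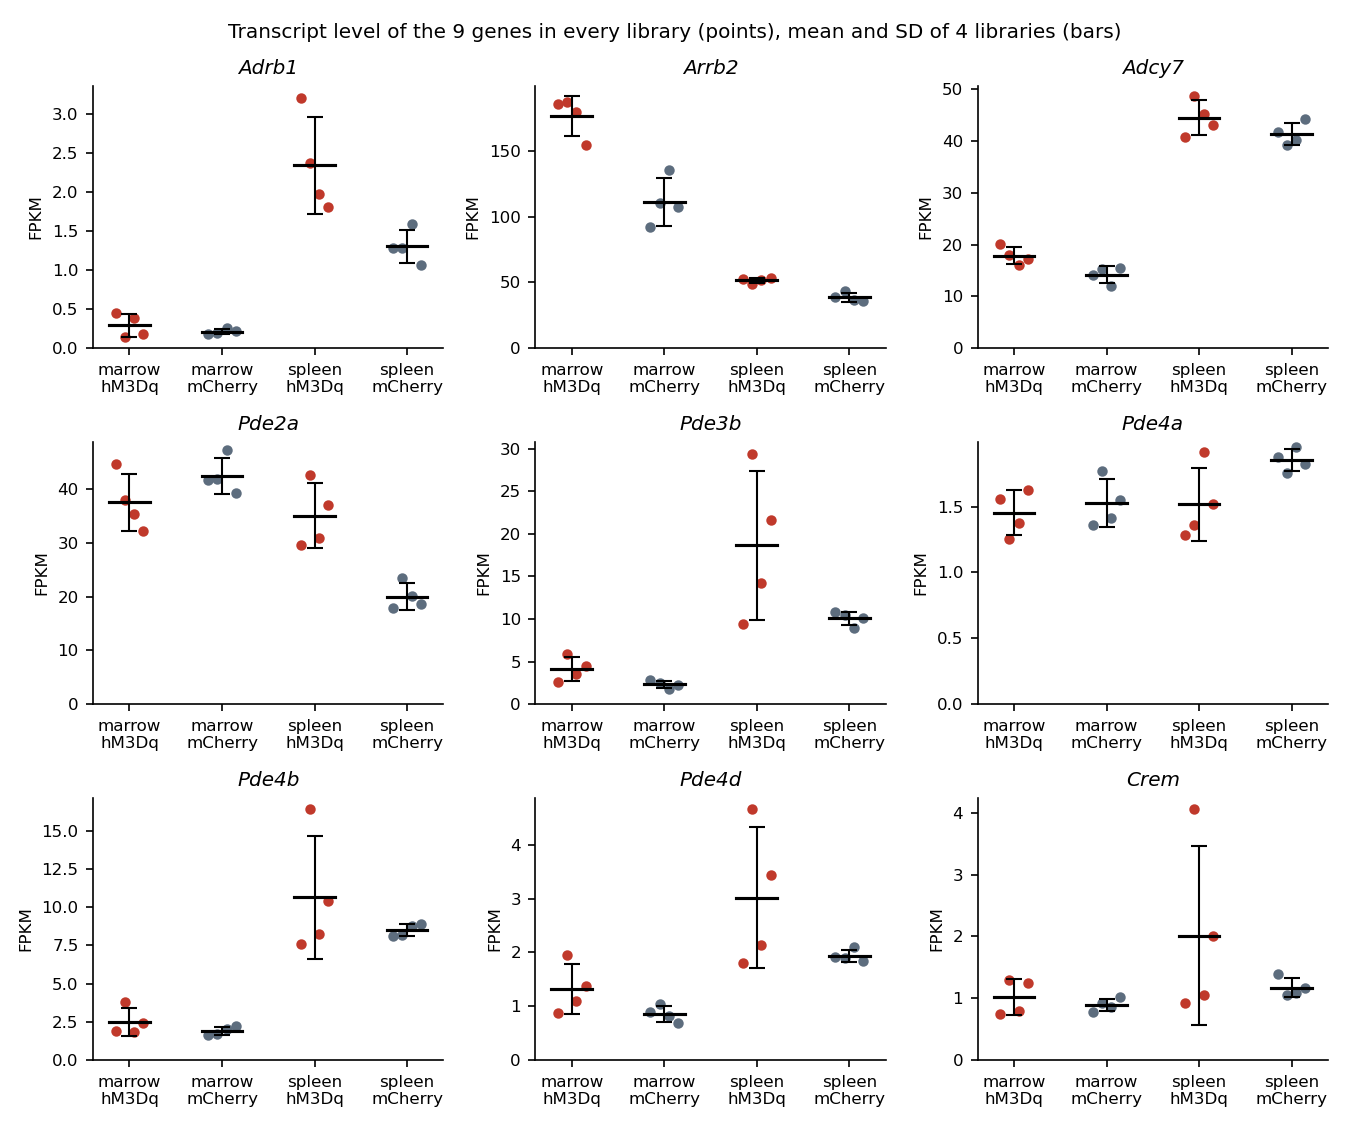
Transcript levels in FPKM (vertical axes, linear from 0) of the 9 genes in each of the 16 libraries (points), with the mean and SD of 4 libraries (black bars), for bone marrow and spleen and with hM3Dq left of mCherry. Arrb2 stood above its controls in both tissues and Pde2a in spleen, and in the spleen hM3Dq group Pde3b, Pde4b, Pde4d and Crem spread widely, with replicate 6 at the top.

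Adrb1 (ENSMUSG00000035283, chromosome 19, 56722199 to 56733113, plus strand, GRCm38) encodes a beta adrenergic receptor coupled to the stimulatory G protein, best known in the heart. In spleen it stood at 3.21, 2.37, 1.98 and 1.82 FPKM in hM3Dq replicates 5, 6, 7 and 8, against 1.29, 1.28, 1.59 and 1.07 FPKM in mCherry replicates 1, 2, 3 and 4. The groups did not overlap, and the lowest hM3Dq library lay close to the highest mCherry library. The log2 change was 0.74 ± 0.20 (SE; 95% interval 0.30 to 1.19), and with an adjusted p of 0.0537 from limma it was not called, though it was called without the scaling for composition (0.78, adjusted p = 0.0454). The values rest on 63 to 104 fragments in hM3Dq libraries and 35 to 67 in mCherry libraries.

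In bone marrow Adrb1 was close to the detection limit and below the filter, with 15, 5, 14 and 6 fragments in the hM3Dq libraries and 7, 7, 8 and 8 in the mCherry libraries. These are 0.444, 0.145, 0.389 and 0.185 FPKM with hM3Dq, against 0.177, 0.198, 0.256 and 0.217 FPKM with mCherry, so that hM3Dq libraries lay on both sides of the controls. An exact two-sided permutation test of the log2 values gave p = 0.486 for a difference of 0.20, where 4 against 4 libraries allow a p of 0.0286 at the least. Fragments of Adrb1 were recovered with an exon length inferred from the values, since the annotated length did not give whole numbers. Among the other adrenergic receptor genes reported here, Adrb3, Adra2b and Adra2c were listed at 0 in all 16 libraries, and Adra2a reached at most 0.0759 FPKM.

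Arrb2 (ENSMUSG00000060216, chromosome 11, 70432635 to 70440828, plus strand) encodes beta-arrestin, the adaptor that binds phosphorylated receptors, ends their G protein signal, carries them into endocytosis and can bring a phosphodiesterase to them. In bone marrow it stood at 186, 187, 180 and 155 FPKM in hM3Dq replicates 5 to 8 (176.8 ± 15.1, SD, n = 4), against 92.1, 110.3, 136 and 107 FPKM in mCherry replicates 1 to 4 (111 ± 18.1, n = 4). In spleen it stood at 52.3, 48.9, 51.9 and 53.1 FPKM with hM3Dq, against 38.8, 43.8, 36.5 and 35.8 FPKM with mCherry. Every hM3Dq library lay above every mCherry library of its tissue. The log2 change was 0.60 ± 0.12 in bone marrow (limma, adjusted p = 0.0227), a 1.52-fold higher level, and 0.38 ± 0.09 in spleen (adjusted p = 0.0368), 1.31-fold higher. The bone marrow change exceeded the spleen change by 0.22 ± 0.15, which was not called (adjusted p = 0.746).

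The Arrb2 calls lay near the threshold. In bone marrow the adjusted p was 0.0634 and 0.0549 without hM3Dq replicate 6 or 7, and 0.0516, 0.0726 and 0.0723 without mCherry replicate 1, 2 or 4, and 0.0593 with no filter on low counts, while the log2 change stayed between 0.54 and 0.71 in the 16 alternatives tried. In spleen it was 0.0587, 0.0826 and 0.105 without hM3Dq replicate 5, 7 or 8, and 0.0951, 0.0938 and 0.0865 without mCherry replicate 1, 3 or 4, and 0.071 with no filter and 0.0638 with the haemoglobin share as a covariate, with a log2 change of 0.34 to 0.45. All 64 bases of the microRNA gene Mir7115 lie inside Arrb2 exons on the same strand, and reads of the host can count for it. Mir7115 was higher as well, by 0.90 in bone marrow (adjusted p = 0.0279) and by 0.82 in spleen (adjusted p = 0.0085).

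Beside Arrb2, the summed level of 5 plasma cell markers was 338 to 454 FPKM in bone marrow hM3Dq libraries and 209 to 251 in bone marrow mCherry libraries, while 9 neutrophil markers summed to 45530 to 63230 with hM3Dq and 44760 to 62560 with mCherry. Their part in the Arrb2 result was not tested. The plasma cell sums did not overlap and the neutrophil sums nearly coincided. Jchain, the plasma cell marker with the highest level, weighs most in its sum. By limma Jchain (0.71, adjusted p = 0.0149) and Prdm1 (0.76, adjusted p = 0.0261) were called higher in bone marrow. The other plasma cell markers, Xbp1 (0.12), Sdc1 (-0.28) and Tnfrsf17 (-0.12), were not called. None of the 9 neutrophil markers was called there, with log2 changes from -0.47 (Ly6g) to 0.37 (Retnlg). The genes whose levels followed Arrb2 most closely, by the correlation of log2 values centred within each tissue over the 16 libraries among 12209 genes, were Apmap (r = 0.94), Cd300lf (0.94), an inhibitory receptor of myeloid cells, and Wdr74 (0.93). The virus contrast is part of these correlations, so they are a description.

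Of the other receptor kinase and arrestin genes, Grk5, a receptor kinase that phosphorylates active receptors, moved the other way in spleen. It stood at 3.81 ± 0.380 FPKM with hM3Dq and 5.53 ± 0.399 with mCherry in spleen (SD, n = 4 each), and fell by 0.56 ± 0.10 on the log2 scale (limma, adjusted p = 0.0189), a call that held in all 16 alternatives. In bone marrow Grk5 was at 5.32 ± 1.25 FPKM with hM3Dq and 5.62 ± 0.416 with mCherry and was not called (log2 change -0.18, adjusted p = 0.493). Arrb1, the other beta-arrestin gene, was not called in either tissue, at -0.35 ± 0.15 in bone marrow (adjusted p = 0.206) and -0.25 ± 0.27 in spleen (adjusted p = 0.591).

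Adcy7 (ENSMUSG00000031659, chromosome 8, 88272403 to 88329962, plus strand) encodes adenylate cyclase type 7, a membrane cyclase of lymphocytes and myeloid cells that makes cAMP from ATP. In bone marrow it stood at 20.1, 18.0, 16.04 and 17.3 FPKM in hM3Dq libraries, against 14.1, 15.3, 11.9 and 15.5 FPKM in mCherry libraries. The groups were separate but close, and the log2 change of 0.26 ± 0.10 was not called (limma, adjusted p = 0.146), though a single fit of all 16 libraries called it (adjusted p = 0.043). In spleen Adcy7 was higher than in bone marrow and the virus groups overlapped, at 40.8, 48.8, 45.3 and 43.2 FPKM with hM3Dq and 41.8, 39.2, 40.3 and 44.3 with mCherry. The spleen log2 change was 0.07 ± 0.06 (95% interval -0.06 to 0.20). None of the other cyclase genes tested, 4 in bone marrow and 5 in spleen, was called by limma, and at an unadjusted p under 0.05 there was 1 in bone marrow and 0 in spleen. Of all genes tested, 3837 of 16084 in bone marrow and 4479 of 17063 in spleen had such a p.

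Pde2a (ENSMUSG00000110195, chromosome 7, 101421691 to 101512827, plus strand) encodes a phosphodiesterase that breaks down both cAMP and cGMP and is stimulated by cGMP. In spleen it stood at 29.6, 42.7, 31.0 and 37.1 FPKM in hM3Dq replicates 5 to 8 (35.1 ± 6.04, SD, n = 4), against 17.8, 23.5, 20.2 and 18.6 FPKM in mCherry replicates 1 to 4 (20.01 ± 2.50, n = 4). In bone marrow it stood at 44.7, 38.0, 35.4 and 32.3 FPKM with hM3Dq, against 41.7, 41.9, 47.4 and 39.4 FPKM with mCherry. All spleen hM3Dq libraries lay above all spleen mCherry libraries, whereas in bone marrow 3 of 4 hM3Dq libraries lay below all controls and replicate 5 lay among them. The log2 change was -0.26 ± 0.10 in bone marrow, which was not called (limma, adjusted p = 0.166), and 0.77 ± 0.13 in spleen (adjusted p = 0.0122), a 1.70-fold higher level. The spleen call held in all 16 alternatives, with log2 changes of 0.68 to 0.85 and adjusted p of 0.00186 to 0.0452.

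The Pde2a change differed between the tissues: the bone marrow change minus the spleen change was -1.03 ± 0.17 (95% interval -1.39 to -0.67; limma over 16 libraries, adjusted p = 0.0312). Of the 17972 genes tested for this difference 0.1% were called, 0.0612% as lower like Pde2a, and Pde2a ranked number 11 by p. The call was lost without 12 of the 16 libraries in turn, at adjusted p of 0.0511 to 0.099, and held without bone marrow hM3Dq replicate 5, bone marrow mCherry replicate 3, spleen hM3Dq replicate 5 and spleen mCherry replicate 2. It was also lost without the scaling (adjusted p = 0.0686) and with no filter (0.0521). Without both hM3Dq replicate 6 libraries the difference was -0.96 (adjusted p = 0.0999), and over all 25 alternatives it stayed between -1.12 and -0.96. The other members had differences between the tissues with adjusted p of 0.66 or more, and an interval such as that of Pde3b, -0.91 to 0.81, leaves room for sizeable differences.

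A gene model named Gm45837 on the same strand shares 3955 of the 6149 exon bases of Pde2a, and the fragments given to Pde2a were 84.3% to 94.1% of those given to Gm45837 in every library. Its log2 change was -0.29 in bone marrow (adjusted p = 0.141), 0.66 in spleen (adjusted p = 0.0143) and -0.95 for the difference between them (adjusted p = 0.0312). How fragments in the shared bases were assigned is not given in the sources used here. In spleen, where Pde2a rose, 8 B cell markers summed to 962 to 1094 FPKM with hM3Dq and 1161 to 1415 with mCherry, with 5 of the 8 called lower, and every hM3Dq library had less Ptprc than any control. Neutrophil markers summed to 2297 to 5386 FPKM with hM3Dq and 1783 to 4141 with mCherry, which overlap. By limma 1 of these 9 markers, Csf3r, was called lower in spleen (-0.72, adjusted p = 0.0405) and 0 higher. Of 8 monocyte and macrophage markers, Ccr2 was called lower (-0.99, adjusted p = 0.0131) and Vcam1 higher (0.89, adjusted p = 0.0404) there. The part of these cell types in the Pde2a result was not tested. By the same correlation over 16 libraries the genes most like Pde2a were Rab27a (r = 0.91), a small GTPase of secretory granules, Sugp1 (0.91) and Sprtn (0.90), and of these Rab27a was also called higher in spleen (1.12, adjusted p = 0.00977) with -0.06 in bone marrow (adjusted p = 0.736).

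**Figure D2:**
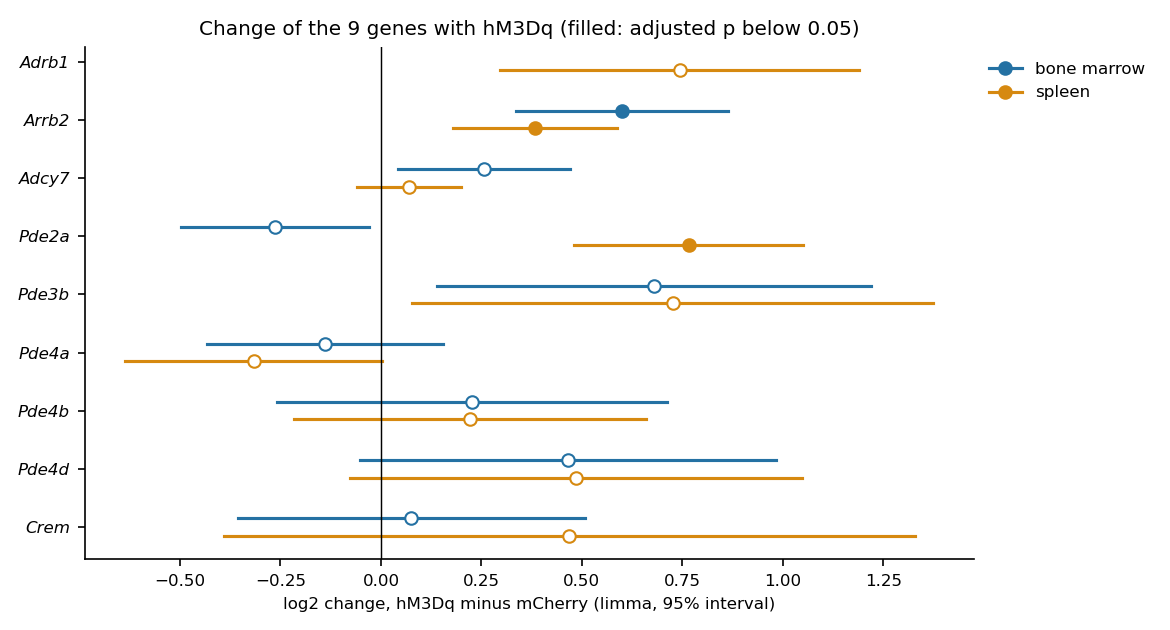
Log2 change from limma, hM3Dq minus mCherry, with its 95% interval (horizontal axis) for the 9 genes in bone marrow (blue) and spleen (orange), where filled points have an adjusted p below 0.05. The intervals of Pde2a lie on opposite sides of 0 in the 2 tissues, those of Arrb2 lie above 0 in both, and Adrb1 has no bone marrow value because it was below the filter.

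Pde3b (ENSMUSG00000030671, chromosome 7, 114415281 to 114539251, plus strand) encodes the cGMP-inhibited phosphodiesterase through which insulin lowers cAMP in fat and liver cells. In spleen it stood at 9.38, 29.4, 14.2 and 21.6 FPKM in hM3Dq replicates 5, 6, 7 and 8, against 10.8, 10.4, 8.98 and 10.1 FPKM in mCherry replicates 1 to 4. The bone marrow levels were 2.62, 5.93, 3.52 and 4.45 FPKM with hM3Dq, against 2.84, 2.42, 1.82 and 2.27 FPKM with mCherry. In both tissues hM3Dq replicate 5 lay among the controls and the other hM3Dq libraries lay above them, replicate 6 highest. The log2 changes of 0.68 ± 0.24 in bone marrow and 0.73 ± 0.29 in spleen were not called (limma, adjusted p = 0.132 and 0.148). Without hM3Dq replicate 6 they were 0.50 and 0.49, the lowest values among the alternatives, and were not called. Without hM3Dq replicate 5 they were 0.89 (adjusted p = 0.0459) and 1.00 (adjusted p = 0.0232). In each tissue that was the only 1 of 16 alternatives with a call, and the highest adjusted p was 0.274 in bone marrow and 0.3 in spleen.

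Pde4b and Pde4d encode phosphodiesterases specific for cAMP, the targets of the drug rolipram, which shape receptor signals in leukocytes and which protein kinase A phosphorylates. Pde4b (ENSMUSG00000028525, chromosome 4, 102087543 to 102607259, plus strand) stood in spleen at 7.58, 16.4, 8.22 and 10.4 FPKM in hM3Dq replicates 5 to 8, against 8.12, 8.20, 8.79 and 8.90 FPKM in mCherry replicates 1 to 4. In bone marrow it stood at 1.89, 3.77, 1.80 and 2.43 FPKM with hM3Dq, against 1.66, 1.73, 2.05 and 2.24 FPKM with mCherry. Replicates 6 and 8 lay above all controls in both tissues and replicates 5 and 7 did not. Log2 changes of 0.23 ± 0.22 in bone marrow and 0.22 ± 0.19 in spleen were not called (limma, adjusted p = 0.561 and 0.504), and without hM3Dq replicate 6 both were 0.02.

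Pde4d (ENSMUSG00000021699, chromosome 13, 108449948 to 109953461, plus strand) stood in spleen at 1.81, 4.67, 2.14 and 3.44 FPKM with hM3Dq, against 1.92, 1.898, 2.09 and 1.84 FPKM with mCherry. Its bone marrow levels were 0.878, 1.95, 1.10 and 1.38 FPKM with hM3Dq, against 0.885, 1.05, 0.817 and 0.686 FPKM with mCherry. Replicate 5 again lay low, and the other hM3Dq libraries lay above every control of their tissue. The log2 changes of 0.47 ± 0.23 in bone marrow and 0.48 ± 0.25 in spleen were not called (limma, adjusted p = 0.256 and 0.251), and without hM3Dq replicate 6 both were 0.28.

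Pde4a (ENSMUSG00000032177, chromosome 9, 21165714 to 21213248, plus strand), a member of the same enzyme family, had virus groups that overlapped in both tissues. It stood at 1.29, 1.36, 1.91 and 1.52 FPKM in spleen hM3Dq libraries, against 1.88, 1.76, 1.96 and 1.83 FPKM in spleen mCherry libraries, and at 1.25 to 1.63 FPKM in bone marrow hM3Dq and 1.36 to 1.77 in bone marrow mCherry. Replicate 6, the highest hM3Dq library for Pde4b and Pde4d, was the lowest of its group for Pde4a in bone marrow. The log2 changes were -0.14 ± 0.13 in bone marrow and -0.32 ± 0.14 in spleen, not called (limma, adjusted p = 0.554 and 0.194).

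Added up per length, the 5 phosphodiesterases came to 49.6 to 94.6 FPKM in spleen hM3Dq libraries and 40.5 to 45.7 in spleen mCherry libraries, which did not overlap. In bone marrow they came to 42.1 to 51.6 FPKM with hM3Dq and 46.1 to 53.4 with mCherry, which did. Pde2a made up 45.1% to 59.6% of this sum in spleen hM3Dq and 44.0% to 51.3% in spleen mCherry, and 74.6% to 86.5% in bone marrow hM3Dq and 85.4% to 88.6% in bone marrow mCherry. The sums are a description, since a member chosen for its change can set them.

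Crem (ENSMUSG00000063889, chromosome 18, 3266048 to 3337748, minus strand) encodes activating and repressing factors that bind cAMP response elements, among them the early repressor ICER, which comes from a promoter inside the gene and which a value per gene does not separate. In spleen it stood at 0.926, 4.07, 1.05 and 2.01 FPKM in hM3Dq replicates 5 to 8, against 1.39, 1.05, 1.08 and 1.17 FPKM in mCherry replicates 1 to 4. In the marrow the levels were 0.751, 1.30, 0.799 and 1.25 FPKM with hM3Dq, against 0.779, 0.919, 0.865 and 1.02 FPKM with mCherry. Replicates 6 and 8 lay above all controls in both tissues, replicate 5 lay below all controls in both, and replicate 7 lay among them in bone marrow and at their lower edge in spleen. The log2 changes of 0.08 ± 0.19 in bone marrow and 0.47 ± 0.38 in spleen were not called (limma, adjusted p = 0.848 and 0.468). The spleen value was 0.09 without hM3Dq replicate 6, and the bone marrow value turned to -0.03 without replicate 6 or 8.

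Pde3b, Pde4b, Pde4d and Crem ordered the hM3Dq libraries alike: on the scaled log2 values replicate 6 was highest, then 8, 7 and 5, in bone marrow and again in spleen. Of 15368 genes tested in both tissues, 6.14% had any one order shared by both tissues, and 110 genes, 0.716%, had this order in both. Without the scaling, the lowest bone marrow library of Pde4b was replicate 7 and not 5. The labels do not say whether a replicate number stands for the same mouse in both tissues. The pattern was noticed after the values were seen, and no test was made of it.

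Centred within each tissue, the log2 values of these 4 genes over the 16 libraries had correlations of 0.76 (Pde3b with Pde4b) to 0.94 (Pde3b with Pde4d), and Pde4a had negative ones with them, from -0.57 to -0.48. The points share library, depth and virus contrast, so these are descriptions. In mCherry libraries 1 of the 9 members, Pde3b, had the same order in both tissues, against 3.92% of genes. Erythroid markers were lowest in replicate 6 in both tissues, with sums of 5283 FPKM in bone marrow and 1796 in spleen. In hM3Dq replicate 5 they summed to 7632 in bone marrow and 16290 in spleen. The highest hM3Dq sums were 32210 in bone marrow and 18090 in spleen. In spleen, replicate 6 also had the lowest neutrophil sum of the hM3Dq group, 2297 FPKM. Their part in the pattern was not tested.

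**Figure D3:**
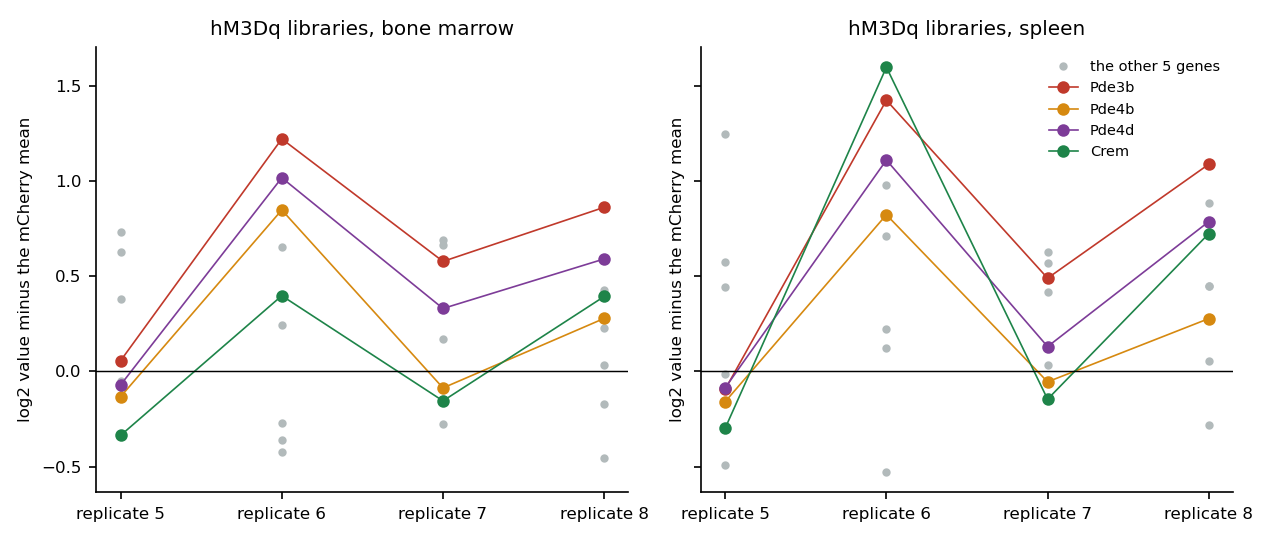
Log2 value of each hM3Dq library minus the mean of the mCherry libraries of its tissue (vertical axis) for replicates 5 to 8 (horizontal axis) in bone marrow (left) and spleen (right). Lines join the values of Pde3b, Pde4b, Pde4d and Crem, which peak at replicate 6 and are higher at 8 than at 5 or 7 in both tissues, and grey points are the other members.

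The 92 other genes of a cAMP pathway list (receptors coupled to the stimulatory G protein, G protein subunits, receptor kinases, cyclases, phosphodiesterases, protein kinase A and its anchors, CREB and its coactivators, and cAMP-induced targets) had calls in both tissues. In bone marrow 70 were tested, 7 were higher and 0 lower by limma, where 4.74% of all genes tested were called. At an unadjusted p under 0.05, 16 were higher and 10 lower, where 3837 of all 16084 genes tested had such a p in either direction. In spleen 72 were tested, 8 were higher and 1 lower, 12.5% against 8.06% of all genes tested. At an unadjusted p under 0.05, 14 were higher and 10 lower, where 4479 of all 17063 genes tested had such a p in either direction. Their median log2 change in spleen was -0.02, the same as that of all genes. None of 76 differed between tissues by limma, where 8 had an unadjusted p under 0.05, against 1600 of all 17972 genes tested. Besides the genes described next, the called ones were Fos in bone marrow (1.96, adjusted p = 0.0264) and Pde1b (0.50, adjusted p = 0.0445) and Crtc2 (0.40, adjusted p = 0.0369) in spleen, named after their values were seen. Fos stayed called in 10, Pde1b in 4 and Crtc2 in 6 of 16 alternatives.

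Per1, a clock gene, stood at 27.4 ± 9.52 FPKM with hM3Dq and 3.27 ± 0.327 with mCherry in bone marrow (SD, n = 4 each), and at 23.7 ± 11.4 with hM3Dq and 6.72 ± 0.288 with mCherry in spleen. Its log2 change was 2.89 ± 0.23 in bone marrow (limma, adjusted p = 0.000838) and 1.65 ± 0.27 in spleen (adjusted p = 0.0126). Sik1, a kinase that CREB induces and that holds back the CREB coactivators, stood at 20.9 ± 3.13 FPKM with hM3Dq and 8.13 ± 1.04 with mCherry in bone marrow, and at 25.6 ± 9.97 with hM3Dq and 6.34 ± 1.37 with mCherry in spleen. Dusp1, a phosphatase of MAP kinases, stood at 53.0 ± 20.7 FPKM with hM3Dq and 7.88 ± 1.43 with mCherry in bone marrow, and at 27.6 ± 10.1 with hM3Dq and 7.01 ± 0.327 with mCherry in spleen. These 3 genes were higher in every hM3Dq library than in any control of the tissue. The log2 changes were 1.28 ± 0.12 and 1.91 ± 0.24 for Sik1 in bone marrow and spleen (adjusted p = 0.00135 and 0.00623), and 2.58 ± 0.27 and 1.86 ± 0.20 for Dusp1 (adjusted p = 0.0028 and 0.004), and all 3 stayed called in the 16 alternatives of each tissue. They do not stand for all listed cAMP-induced targets. In bone marrow 10 such targets were tested, 4 called higher, with a median log2 change of 0.30. In spleen 13 were tested, 3 called higher, with a median of -0.07. None was called lower. Nr4a1 lay below 0 in both tissues (-0.28 and -0.39), as did Nr4a3 (-0.51) and Fosb (-0.45) in spleen, while Gem lay above 0 (0.31 and 0.02), all uncalled.

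Among phosphodiesterase genes outside the set, Pde7b, an enzyme specific for cAMP, had the largest change. It stood at 0.551, 1.98, 1.15 and 1.34 FPKM in bone marrow hM3Dq replicates 5 to 8, against 0.374, 0.249, 0.243 and 0.336 FPKM in mCherry replicates 1 to 4. In spleen it stood at 0.408, 1.21, 0.780 and 1.05 FPKM with hM3Dq, against 0.132, 0.177, 0.251 and 0.281 FPKM with mCherry. No groups overlapped, and the log2 change was 1.61 ± 0.33 in bone marrow and 1.52 ± 0.29 in spleen (limma, adjusted p = 0.0254 and 0.0208), on a scale that understates changes at such low levels. The bone marrow call was lost without hM3Dq replicate 6, 7 or 8 or mCherry replicate 2, 3 or 4 (adjusted p of 0.0565 to 0.0739), and the spleen call without hM3Dq replicate 8 or mCherry replicate 1 or 2 (0.0502 to 0.0654), and with no filter both were lost (0.0883 in bone marrow and 0.0634 in spleen). Per1, Dusp1 and Pde7b had the library order 6, 8, 7, 5 of Pde3b, Pde4b, Pde4d and Crem in both tissues, and Sik1 and Akap8 had it in spleen only. Grk5, and Gng2 and Pkig, which are described below with Akap8, had it in neither tissue.

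Smaller changes were seen around protein kinase A and the G protein. Akap8, a nuclear anchor of that kinase, rose by 0.42 in bone marrow (limma, adjusted p = 0.0149) and by 0.41 in spleen (adjusted p = 0.043), and the spleen call was lost in 11 of 16 alternatives. Gng2, a G protein gamma subunit, rose in bone marrow (0.43, adjusted p = 0.0183) but not without hM3Dq replicate 6 (adjusted p = 0.0531) or mCherry replicate 2 (0.0633), and was 0.11 in spleen (adjusted p = 0.429). Pkig, an inhibitor of the kinase, rose in spleen (0.40, adjusted p = 0.0183; 0.0529 without mCherry replicate 3) and was 0.12 in bone marrow (adjusted p = 0.61).

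**Figure D4:**
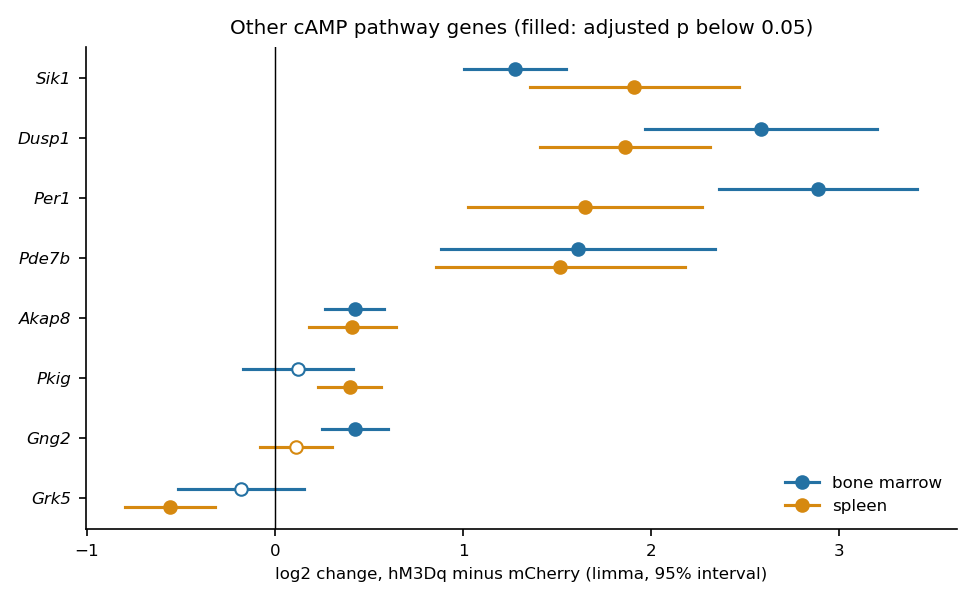
Log2 change from limma, hM3Dq minus mCherry, with its 95% interval (horizontal axis) for 8 other genes of the cAMP pathway list in bone marrow (blue) and spleen (orange), where filled points have an adjusted p below 0.05. Per1, Dusp1, Sik1 and Pde7b lie above 1 in both tissues and Grk5 lies below 0, filled in spleen.

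Levels of the members differed between the tissues without hM3Dq as well. In mCherry mice 7 of the 9 members were called between bone marrow and spleen, against 69.4% of all genes tested, so the count itself is near that of any genes, and 2 were higher and 5 lower in bone marrow, against 35.3% and 34.0%. Higher in bone marrow were Arrb2 (111 ± 18.1 FPKM in bone marrow and 38.7 ± 3.6 in spleen, 3.48-fold after TMM scaling) and Pde2a (42.6 ± 3.39 in bone marrow and 20.01 ± 2.50 in spleen, 2.59-fold after TMM scaling). Lower in bone marrow were Adrb1, Pde4b, Pde3b, Adcy7 and Pde4d, with log2 differences of -1.94 ± 0.16, -1.83 ± 0.11, -1.80 ± 0.14, -1.26 ± 0.08 and -0.84 ± 0.14 (limma, adjusted p of 0.000598 or less). Adrb1 passed the filter here through its spleen libraries alone and so had to differ. Pde4a (-0.003 ± 0.11) and Crem (-0.09 ± 0.12) were not called. Without the scaling for composition the median difference of all genes was -0.28 in place of -0.002, with 4078 genes higher and 7976 lower in bone marrow in place of 5983 and 5759, and Crem was called lower in bone marrow (-0.35, adjusted p = 0.0407). Neutrophil markers summed to 44760 to 62560 FPKM in bone marrow mCherry libraries and 1783 to 4141 in spleen mCherry libraries, and the 8 T cell markers to 26.1 to 29.3 in bone marrow and 395 to 571 in spleen. Their part in these differences was not tested.

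The order of levels followed the tissue. In bone marrow Arrb2 was highest, then Pde2a and Adcy7, without overlap between neighbours in either virus group, and Adrb1 was lowest. In spleen mCherry libraries Adcy7 (41.4 ± 2.19 FPKM) and Arrb2 (38.7 ± 3.6) overlapped at the top. In spleen hM3Dq libraries Arrb2 (51.6 ± 1.84 FPKM) lay just above all values of Adcy7 (44.5 ± 3.40), which overlapped with Pde2a. Pde3b and Pde4b came next in spleen, and Pde4d, Pde4a, Adrb1 and Crem all averaged at most 3.02 FPKM there, most of them overlapping with a neighbour.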

How the data were processed

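Poly(A) RNA of CD45+ cells was measured in 16 libraries, and the authors deposited 1 file per library with FPKM values, per the file headers, for 49585 Ensembl genes. The submitters' processing notes name CASAVA 1.9, STAR 2.6.1a, featureCounts, edgeR 3.28.1 and GRCm38 as the build. The sources used here do not give the release of the annotation or the setting for strand, so reads of overlapping genes may be split or shared. Symbols came from GENCODE M21 for 49326 genes. FPKM times exon length gave whole fragments (within 0.01) for 27922 of 31954 genes above 0, and for 4029 another length did. These fragments served the filter (at least 10 in 4 or more of a comparison's libraries) and the TMM factors (trims of 30% and 5%, reimplemented); 1 fragment at 2 kilobases is worth 0.0295 to 0.0441 FPKM.

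limma 3.58.1 (R 4.3.3, trended variance, two-sided) was fitted to log2(FPKM divided by the TMM factor + 0.1) of all genes, and values after ± are SE for log2 changes and SD for FPKM. This scale understates changes of low genes. The fit was also run on simulated counts with the same spread for all genes and no composition factors. That run does not represent the spread or scaling of these libraries. Python 3.11.15, pandas 2.3.3, scipy 1.17.1 and matplotlib 3.10.9 made the other values. Comparisons were hM3Dq against mCherry within each tissue, the difference between these effects fitted to the 16 libraries together, and, in mCherry mice, bone marrow against spleen. The members and gene lists were chosen with earlier results of these data known. Named were all members, the 5 higher and 5 lower called pathway genes with the smallest p in each tissue, adrenergic receptor genes, and the 3 genes most like each called member. Alternatives changed the scaling, the pseudocount (1 or 0.01), the filter (none, or 1 FPKM), the fit (all libraries at once, a robust spread, the haemoglobin share as a covariate, a replicate block) and left out each library. Results of some genes of the lists are not reported here.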

Additional observations from a re-analysis of the deposited data

Results flagged for a closer look

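The effect of hM3Dq on Pde2a was called different between the tissues by a test of the difference itself, a call that held in 9 of 25 alternatives. The bone marrow effect minus the spleen effect was -1.03 on the log2 scale (limma over 16 libraries, adjusted p = 0.0312), from -0.26 in bone marrow and 0.77 in spleen. The overlapping gene model Gm45837 gave -0.95. It shares 3955 of its 4139 exon bases with Pde2a and may hold largely the same fragments, so it is not a separate measurement. None of the 36 sets of 4 libraries, 1 for each member in each group, held a library that stood apart by Dixon's test, although hM3Dq replicate 6 was the highest of its group in both tissues for Pde3b, Pde4b, Pde4d and Crem.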

How the results depend on the processing

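The Pde2a call in spleen held in all 16 alternatives, and the 7 member calls between tissues kept their side in every alternative that tested the gene. Of these 7, Adrb1 passed the filter through its spleen libraries alone and so had to differ. Calls of Arrb2 held in 10 of 16 in bone marrow and 8 of 16 in spleen, and the Pde2a difference between tissues in 9 of 25. The members called in bone marrow numbered 0 with no filter, 2 in the single fit and 0 to 2 without each library in turn. In spleen they numbered 3 without TMM, 1 with no filter and 1 with the haemoglobin covariate, and 1 to 2 without each library. For the difference between tissues they numbered 0 without TMM, 0 with no filter and 0 to 1 without each library. Over all genes the calls in bone marrow numbered 762, and 285 with no filter, 1585 in the single fit and 275 to 697 without each library. In spleen they numbered 1376, and 591 with no filter, 861 with the haemoglobin covariate and 418 to 1753 without each library. For the difference they numbered 18, and 11 without TMM, 80 with a pseudocount of 1 and 3 to 36 without each library. Without both hM3Dq replicate 6 libraries, an alternative chosen after seeing the data, 4 genes and 0 members differed between tissues. The cause of these shifts was not tested.

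The replicate numbers were not shown to pair the samples, since same-numbered bone marrow and spleen libraries deviated together with correlations of 0.037 to 0.338, some under 0.1. Each library correlated best with its own number in the other tissue except the replicate 5 libraries, a hint from the data and not from the design. With the replicate block 9 genes and 0 members differed between tissues, and Pde2a had -1.03 with an adjusted p of 0.15, while the member calls between mCherry tissues stayed at 7. No member had a call that turned direction. Among the uncalled values, Crem in bone marrow was -0.032 to 0.212 without single libraries. The difference between tissues turned for Pde3b (-0.321 to 0.184 without single libraries, 0.004 without both replicate 6 libraries), for Pde4b (-0.031 with a pseudocount of 1, -0.053 with the haemoglobin covariate, -0.202 to 0.205 without single libraries, -0.002 without both replicate 6 libraries) and for Pde4d (0.014 without TMM, -0.209 to 0.19 without single libraries, 0.006 without both). Pde4a between mCherry tissues was -0.057 to 0.03 without single libraries.

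With 4 libraries a group, intervals of uncalled members are wide (-0.39 to 1.33 for Crem in spleen), and values under 10 fragments, such as Adrb1 in bone marrow, were at the limit of this depth.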
